A study of Caenorhabditis elegans with 33 samples.

Results

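Whole-body RNA of the nematode Caenorhabditis elegans was compared between worms fed a torY mutant of Escherichia coli and worms fed BW25113 bacteria. The comparison took the 3 libraries titled torY and the 3 titled BW25113, 6 of the 33 libraries in the series, with every gene counted in them. All worms were of the wild-type strain N2 and were collected as synchronized adults, and the bacteria eaten are the only difference that the labels give. BW25113 is a laboratory E. coli K-12 strain, the parent of a widely used collection of gene deletions, and the torY diet is described only as mutant bacteria. Across the series 10 mutant diets were sequenced with 3 libraries each, and the title places the work in the study of microbial genes and social behavior. The kind of torY mutation, the age of the adults, how many animals went into a library and whether replicates were separate cultures are not stated in the sources used here. The p-values therefore measure only how far these libraries spread, and that spread may be technical.

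In E. coli, torY encodes a c-type cytochrome that passes electrons to a reductase of trimethylamine N-oxide and related compounds during respiration without oxygen. Worms eat these bacteria, and bacterial metabolites can reach host tissues such as the intestine and the epidermis. The worm epidermis secretes a collagen cuticle that is replaced at each molt of larval life, and the hermaphrodite germline makes sperm first and oocytes for the rest of its fertile life.

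The 6 libraries held 21.9 M to 22.5 M expected counts (M, 1e6 reads) and 15385 to 16627 genes above 0. Across genes, Pearson's r of log2 CPM (counts per 1e6, scaled for library composition) was 0.954 to 0.978 among the torY replicates and 0.957 to 0.978 among the BW25113 replicates. Between torY and BW25113 libraries it was 0.862 to 0.91 (genes are not independent replicates). Of 20 pan-neuronal genes tested 1 was called (adjusted p under 0.05 in edgeR), as was 1 of 18 intestine markers and 1 of 24 body wall muscle filament genes. These shares were 5.0%, 5.56% and 4.17%, beside 14.9% of all genes tested. A fit of the 6 libraries alone called 5 intestine markers higher and 1 lower. It called 1 pan-neuronal gene higher and 2 lower, and 1 muscle gene higher. RNA of all 3 lists was detected in each of the 6 libraries. Bacterial transcripts were not analysed here, and the torY mutation itself could not be checked in these tables.

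The torY diet went with higher expression of cuticle, hedgehog-related and sperm genes. Expression was lower for embryonic transcription factors, dosage compensation genes and part of the F-box genes. Of 14695 genes tested, 2191 had a Benjamini-Hochberg adjusted p under 0.05 in the quasi-likelihood test of edgeR and are termed called (14.9%). In torY 1419 genes rose (9.66%) and 772 fell (5.25%). The rises were larger than the falls, with a median log2 fold change of 3.10 among rising genes and -1.64 among falling ones, and 1046 rises against 300 falls exceeded 4-fold. The rising genes together took 0.765%, 0.522% and 0.938% of the counts in BW25113 replicates 1, 2 and 3, and 9.76%, 6.04% and 9.64% in the torY replicates in the same order. The falling genes took 1.66% to 1.90% of the counts in BW25113 and 0.540% to 0.977% in torY. Rises were most frequent at low levels, with 781 of the 5182 genes at a mean of 1 to 10 CPM, whereas falls were most frequent at 10 to 100 CPM, with 372 of 5225 genes. Above a mean of 1000 CPM, 12 of 223 genes rose.

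**Figure D1:**
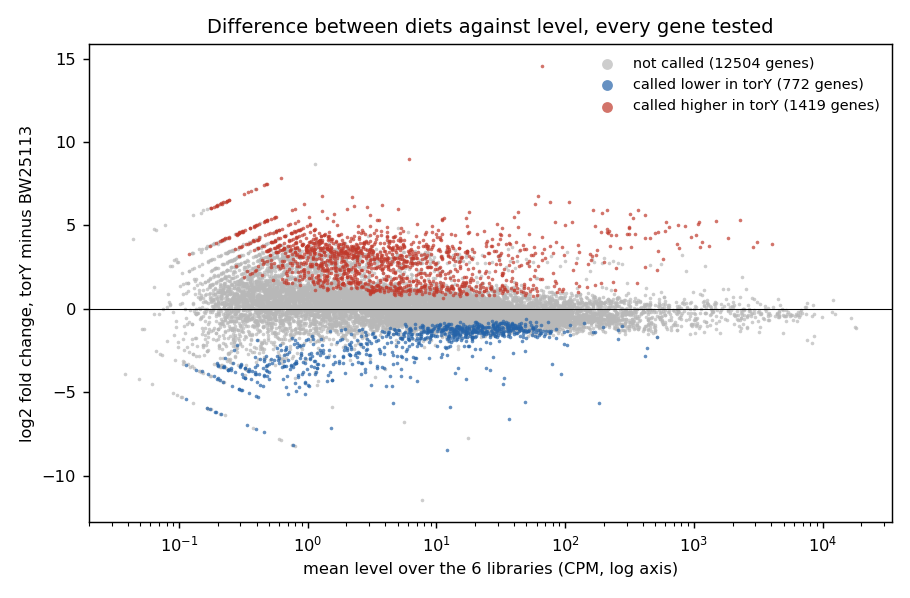
Each point is 1 of the 14695 genes tested, placed by its mean level over the 6 libraries (CPM, log axis) and by its log2 fold change between torY and BW25113. The 1419 red genes were called higher in torY and the 772 blue genes lower, and the remaining 12504 in grey were not called.

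The number of calls rested on single libraries. Without BW25113 replicate 2 edgeR called 0 genes, with 4063 at an unadjusted p under 0.05 and a smallest adjusted p of 0.0717, so every call named here was lost in that fit. Without BW25113 replicate 1 or 3 the calls numbered 744 and 578, and without torY replicates 1, 2 and 3 they numbered 539, 2116 and 153. Each of the 2191 called genes kept its sign without any 1 of the BW25113 libraries or without torY replicate 1 or 2. Without torY replicate 3, 2190 kept it. That was largely set by the calling, since the groups did not overlap in 1409 of the 1419 rises (99.3%) and 767 of the 772 falls (99.4%). The kept signs are therefore no further test. Later remarks that the groups of a called gene were apart only describe its levels. Within torY, replicate 2 was the lowest of the 3 libraries for 1010 of the 1419 rising genes (71.2%), against 46.4% of all genes tested. Scaling mattered as well: of the calls above 64.8% were rises, and with total counts in place of composition factors 80.9% of 823 calls were. That scaling moved the median log2 fold change of all genes from 0.0097 to 0.281, so changes are stated relative to the composition-scaled median.

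**Figure D2:**
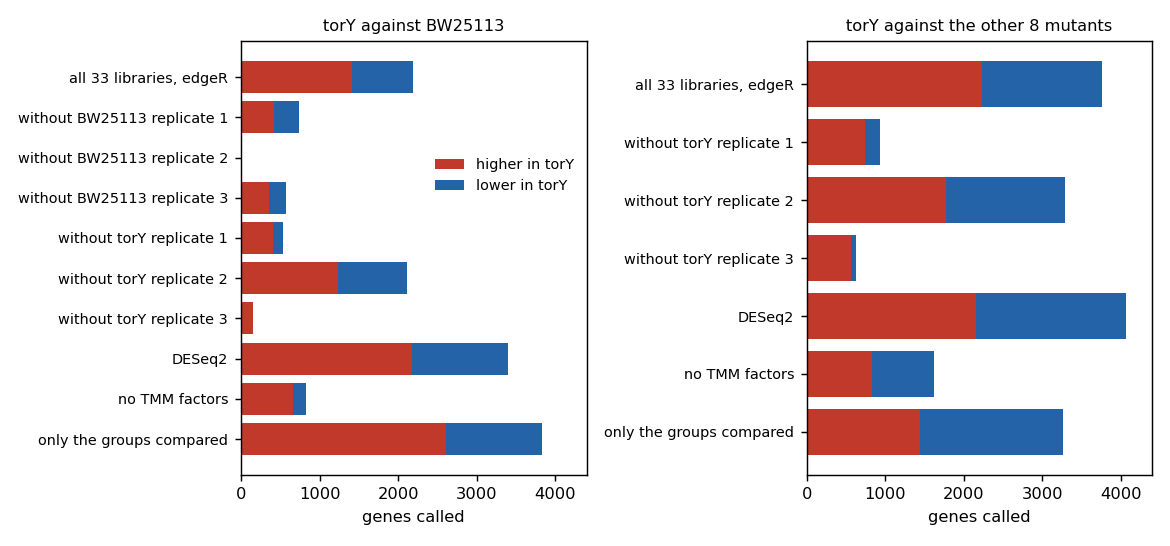
Bars give the number of genes called (x axis) in torY against BW25113 (left) and torY against the mean of 8 other mutant diets (right), split into higher (red) and lower (blue) in torY, for the fit of all 33 libraries and for other settings. The left bar is empty without BW25113 replicate 2, and the right bars are shortest without torY replicate 1 or 3, at 933 and 624 calls.

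Cuticle collagens formed the bulk of the abundant rises. The collagen gene col-144 (chromosome V, 9159586 to 9160642) stood at 623, 338 and 538 CPM in BW25113 replicates 1 to 3 and at 11411, 3421 and 7743 CPM in torY. All 3 torY libraries lay above all 3 controls, a separation found for 47.3% of all genes tested (25.5% with torY higher, 21.7% with torY lower), torY replicate 1 highest and replicate 2 lowest, and the log2 fold change was 3.91 (SE 0.81, adjusted p = 0.0118 in edgeR). Another collagen, dpy-13 (IV, 4235614 to 4236710), whose loss makes worms short and fat, went from 66.1, 27.1 and 135 CPM to 4877, 1187 and 2590 CPM, with a log2 fold change of 5.24 (SE 1.44). The collagen ram-2 (II, 11015589 to 11016881), needed for the shape of male tail rays, was at 117, 56.0 and 103 CPM in BW25113 and at 2261, 729 and 1170 CPM in torY (3.91, SE 0.84). The same library order, replicate 1 above 3 above 2, held in torY for each of these collagens. Further members among the 10 rising genes with the highest mean CPM were col-170 (3.71, SE 0.83), dpy-4 (5.31, SE 1.48), col-73 (5.22, SE 1.45) and col-12 (3.69, SE 1.12), all of them cuticle collagens. The calls of dpy-13 and dpy-4 were kept in 1 of the 6 fits that left out a library, and those of col-144 and ram-2 in 5, with a log2 fold change of col-144 between 3.48 (without torY replicate 1) and 4.26 (without torY replicate 2).

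**Figure D3:**
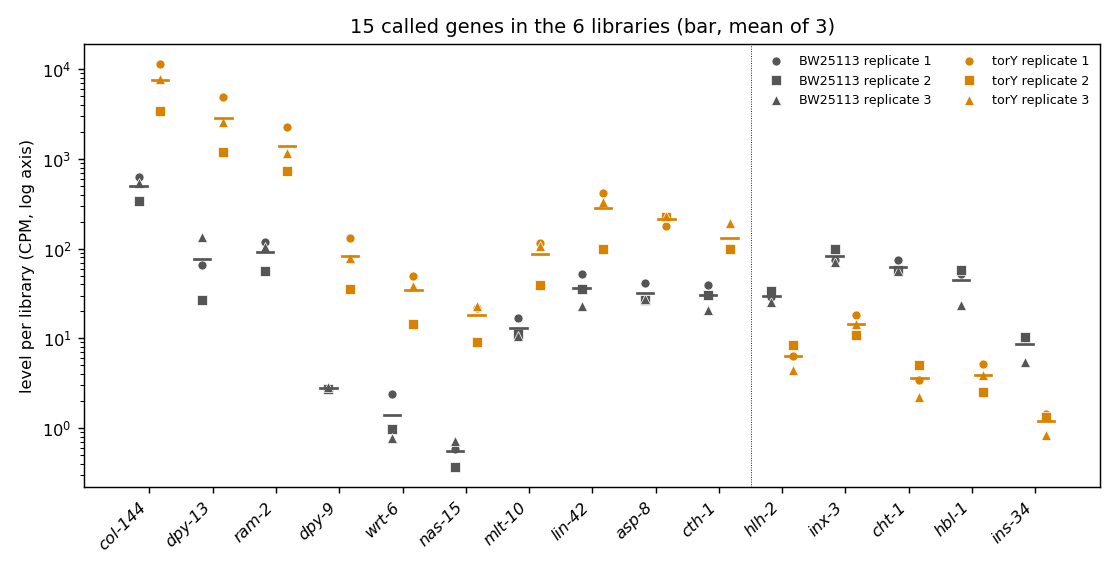
CPM of 15 called genes (log axis) in each of the 3 BW25113 libraries (grey) and 3 torY libraries (orange), with circles, squares and triangles for replicates 1, 2 and 3 and a bar at the mean. The 10 genes left of the dotted line were higher in torY and the 5 right of it lower. In each of the 15 the 2 groups do not overlap, as in 99.3% of all called rises and 99.4% of called falls. Over all genes tested that share was 47.3%.

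Of 156 cuticle collagens tested (furrow, body shape and numbered col genes), 78 rose, 5 fell and 73 were not called, with a median log2 fold change of 3.00 beside 0.0097 over all genes. Per unit length, the 78 collagens that rose summed to 2507, 1499 and 4466 TPM (transcripts per 1e6) in BW25113 and to 63568, 32175 and 60037 TPM in torY. The 73 that were not called summed to 66672, 68103 and 101223 TPM in BW25113 and to 97101, 72365 and 70073 TPM in torY, so the groups overlapped there. The members were sorted by the same counts, and the sums describe them without a test. Collagen message outside the set that rose was thus abundant on both diets. Collagens are a multigene family, and how reads shared between near-identical members were counted is not stated.

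Not every class of collagen moved alike. The furrow collagens shape the ring-like grooves of the cuticle, and 2 of the 6 rose, dpy-9 and dpy-8. For dpy-9 (IV, 257403 to 259204) the BW25113 libraries were close together at 2.80, 2.70 and 2.89 CPM, and torY stood at 133, 35.5 and 79.0 CPM (log2 fold change 4.88, SE 0.93, adjusted p = 0.0118 in edgeR). The other 4 were not called, and their BW25113 libraries spread widely: dpy-7 was at 43.1, 24.8 and 6.15 CPM there and at 92.6, 31.8 and 73.5 CPM in torY (1.42, SE 0.86). For dpy-10 the values were 36.4, 22.1 and 10.13 CPM against 26.3, 15.0 and 30.9 CPM, a log2 difference of 0.07 (SE 0.73), and the groups overlapped. The log2 differences of dpy-2 (1.25, SE 0.84) and dpy-3 (0.64, SE 0.93) lay between these.

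Of 14 body shape and blister collagens tested, 11 rose and 2 fell, and of 136 numbered col genes 65 rose and 3 fell. One of the falling collagens was dpy-17 (III, 5107330 to 5108492), another gene of body length, at 644, 346 and 84.5 CPM in BW25113 and 12.0, 5.84 and 3.86 CPM in torY. The groups were far apart although the controls differed among themselves by replicate, and the log2 fold change was -5.63 (SE 1.53, adjusted p = 0.0233 in edgeR). The numbered collagen col-95 fell as well, from 1238, 624 and 298 CPM to 193, 169 and 56.7 CPM (-2.37, SE 0.81). Its call was lost in each of the 6 fits without 1 library, and its log2 fold change was -1.73 without BW25113 replicate 1. Over the 156 collagens the rises numbered 40, 0 and 41 with BW25113 replicates 1, 2 and 3 left out in turn, and 39, 80 and 33 with the torY replicates left out, and DESeq2 on all libraries gave 88 rises and 7 falls.

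**Figure D4:**
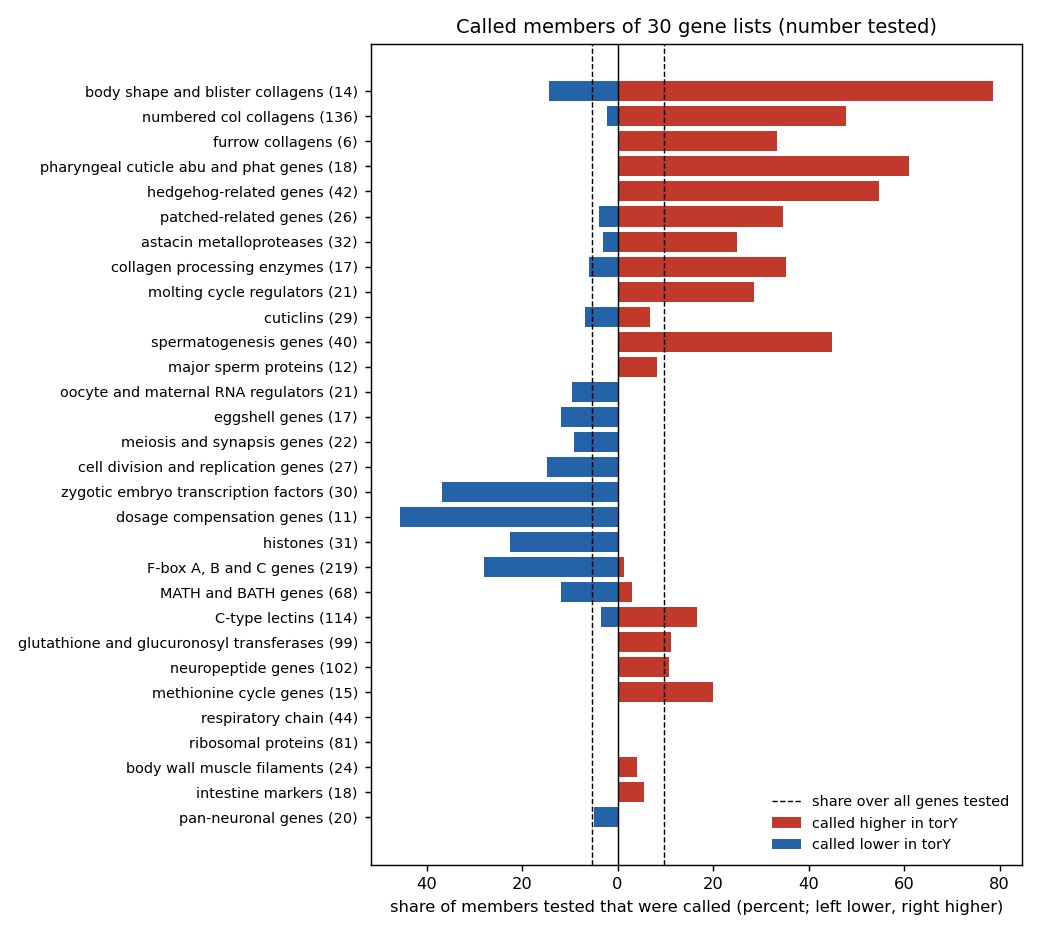
Bars show the share of tested members of 30 gene lists (number tested in brackets) that were called higher (red, to the right) or lower (blue, to the left) in torY than in BW25113, with dashed lines at 9.66% and 5.25%, the shares over all genes tested. The spermatogenesis list and cuticle lists other than the cuticlins extend right of the line, among others, and the major sperm proteins do not reach it. Embryo, dosage compensation, histone, F-box and MATH lists extend left of it. So do the eggshell, oocyte, meiosis and cell division lists, and the body shape collagens, cuticlins and collagen processing enzymes.

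Enzymes that build and link collagen rose in part. Of 17 such genes 6 rose and 1 fell, with a median log2 fold change of 0.57. Those that rose included the prolyl 4-hydroxylase subunits dpy-18 (1.36, SE 0.39) and phy-2 (1.26, SE 0.34), which modify collagen before it is secreted. The peroxidase gene mlt-7, which cross-links the cuticle, rose by 1.27 (SE 0.36), and the protease inhibitor gene bli-5 by 3.71 (SE 0.88). For dpy-18 the levels were 49.7, 42.9 and 43.6 CPM in BW25113 and 180, 58.5 and 113 CPM in torY. The torY libraries spread more than the controls and lay above them all. With BW25113 replicates 1, 2 and 3 left out in turn, 1, 0 and 2 of these enzymes rose, and with the torY replicates left out 2, 5 and 0 did.

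Genes that time or carry out the molt rose in part. Of 21 molting cycle regulators 6 rose, none was called lower by edgeR or DESeq2 with all libraries, and the median log2 fold change was 0.80. One of them was lin-42 (II, 1233236 to 1252359), a homolog of the clock gene period whose expression cycles with the molts, at 52.5, 35.2 and 22.9 CPM in BW25113 and 415, 98.3 and 329 CPM in torY. Its groups did not overlap (log2 fold change 2.93, SE 0.70, adjusted p = 0.0149 in edgeR). The gene mlt-10, which encodes a secreted protein needed for molting, went from 17.0, 11.2 and 10.7 CPM to 115.4, 39.7 and 107 CPM (2.75, SE 0.63). The genes mlt-8 (2.27, SE 0.64) and mlt-9 (3.05, SE 0.90), named for molting defects, also rose, as did the kinase gene nekl-3 (1.02, SE 0.29) and its partner mlt-4 (1.395, SE 0.48). Upstream, the nuclear receptor gene nhr-23, a driver of molting gene expression, stood at 21.4, 35.7 and 62.3 CPM in BW25113 and 36.05, 14.3 and 41.0 CPM in torY and was not called (-0.39, SE 0.59). The nuclear receptor gene nhr-25 (-1.37, SE 0.62), the transcription factor genes myrf-1 (0.61, SE 0.57), grh-1 (-0.09, SE 0.52) and blmp-1 (0.52, SE 0.47) were not called either, but with the 6 libraries alone edgeR called 8 rises and 1 fall in the list, nhr-25. The rises numbered 4, 0 and 1 with BW25113 replicates 1, 2 and 3 left out in turn, and 2, 5 and 0 with the torY replicates left out.

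Among 15 heterochronic genes, which set the order of larval stages, lin-42 rose and hbl-1 fell. The hbl-1 gene (X, 5822142 to 5827755), which encodes a homolog of the Hunchback transcription factor, was at 52.1, 57.7 and 23.6 CPM in BW25113 and at 5.11, 2.51 and 3.94 CPM in torY. All torY libraries lay below all controls, and the log2 fold change was -3.53 (SE 1.01, adjusted p = 0.0277 in edgeR). The call of hbl-1 was kept in 1 of the 6 fits without a library, in which it was -3.84 (without BW25113 replicate 3).

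Members of secreted families linked to the epidermis and its cuticle rose as well. Of 42 hedgehog-related genes, which encode secreted proteins of the warthog, groundhog and ground-like families, 23 rose and 0 fell by edgeR and by DESeq2, with a median log2 fold change of 2.16. For wrt-6 (X, 3480250 to 3483666) the BW25113 libraries were at 2.39, 0.981 and 0.775 CPM and the torY libraries at 49.9, 14.5 and 38.6 CPM. The lowest torY library was thus well above the highest control (4.63, SE 0.82, adjusted p = 0.0109 in edgeR). Close in size were wrt-4 (4.52, SE 0.79) and grd-1 (3.34, SE 0.69). The rises in this family numbered 17, 0 and 14 with BW25113 replicates 1, 2 and 3 left out in turn, and 15, 23 and 11 with the torY replicates left out.

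Of 26 patched-related genes, relatives of the hedgehog receptor, 9 rose and 1 fell, with a median of 0.92. The patched-related gene ptr-11 (I, 160172 to 169763) went from 8.63, 5.45 and 6.56 CPM to 33.9, 17.4 and 25.7 CPM (1.90, SE 0.38, adjusted p = 0.0118 in edgeR), with no overlap. In the opposite direction, the patched homolog ptc-1, which acts in the germline, fell from 222, 254 and 331 CPM to 131, 109 and 134 CPM (-1.11, SE 0.34). With BW25113 replicates 1, 2 and 3 left out in turn the rises numbered 6, 0 and 5, and with the torY replicates left out 4, 9 and 2, and the call of ptc-1 was lost in each of these fits.

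Astacin metalloproteases, secreted enzymes that cut extracellular proteins, had 8 rises and 1 fall among 32 members tested, with a median of 1.38. The gene nas-15 (X, 777721 to 780533) was at 0.583, 0.368 and 0.723 CPM in BW25113 and at 21.9, 9.20 and 23.0 CPM in torY (4.99, SE 0.88, adjusted p = 0.0109 in edgeR). The lowest torY library was far above the highest control, and nas-15 was one of the 10 named rises with the lowest p. The related nas-30 (3.42, SE 0.63) and nas-38 (3.33, SE 0.75) rose too. In the family 16 members rose in a fit of the 6 libraries alone, 4, 0 and 6 with BW25113 replicates 1, 2 and 3 left out in turn, and 5, 9 and 3 with the torY replicates left out.

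The abu and phat genes encode proteins of the cuticle that lines the pharynx, and 11 of 18 tested rose, with a median of 2.98. The gene abu-11 (II, 192509 to 194558) was at 20.0, 9.13 and 16.2 CPM in BW25113 and 169, 75.6 and 129 CPM in torY (3.04, SE 0.73, adjusted p = 0.0149 in edgeR). Its groups were apart, and the order of the torY replicates in CPM was that of the collagens. Pharynx markers summed to 60.2, 69.9 and 130 TPM in BW25113 and 116, 166 and 174 TPM in torY, with overlap, and their part in the abu and phat result was not tested. Of 10 tested, 1 was called, eya-1, a homolog of the eyes absent gene, which fell by 3.03 (SE 0.83). The list of cuticlins, proteins of the cuticle other than collagen, was divided, with 2 rises and 2 falls among 29 and a median of 0.07. The rises were cut-4 (3.12, SE 0.75) and cutl-15 (2.55, SE 0.54), and the falls were cutl-2 (-4.39, SE 1.26) and cutl-9 (-3.42, SE 1.14). The abu and phat rises numbered 6, 0 and 4 with BW25113 replicates 1, 2 and 3 left out in turn and 4, 11 and 3 with the torY replicates left out, and the last of these fits called 0 cuticlins.

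Chitin is found in the eggshell and in the lining of the pharynx, and the genes that make or break it went both ways. The chitinase gene cht-1 (X, 3397613 to 3400017) was at 75.0, 57.1 and 56.7 CPM in BW25113 and 3.45, 5.10 and 2.19 CPM in torY, with groups far apart (-4.13, SE 0.81, adjusted p = 0.0118 in edgeR). The related cht-4 (III, 1653723 to 1657480) rose from 3.21, 1.90 and 1.91 CPM to 26.8, 11.1 and 20.9 CPM (3.06, SE 0.65). Both calls were kept in 5 of the 6 fits that left out 1 library. The third call among 16 members tested was the eggshell chitin synthase chs-1, which fell.

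In the germline, a number of sperm genes rose, and the other germline lists leaned lower. A minority of the members of those other lists was called by edgeR with all 33 libraries fitted. Of 40 spermatogenesis genes 18 rose and none was called lower by edgeR or DESeq2 with all libraries, with a median log2 fold change of 2.97. The kinase gene spe-6 (III, 11505488 to 11508930), which holds sperm in an immature state, was at 2.39, 2.27 and 2.22 CPM in BW25113 and 5.25, 5.76 and 6.44 CPM in torY. Replicates of each group lay close together and the groups did not overlap (1.34, SE 0.34, adjusted p = 0.0195 in edgeR). The sperm gene spe-47 rose by 2.62 (SE 0.67). In RNA of whole animals, fewer cells of a type and less RNA per cell cannot be told apart.

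Major sperm proteins, the motor proteins of the crawling sperm, had log2 fold changes from 2.34 to 4.10 in the 12 genes tested, yet 1 was called, msp-32 (4.10, SE 1.37). DESeq2 called 11 of the 12. Their summed level was 1636, 1308 and 2990 TPM in BW25113 and 12236, 13471 and 14346 TPM in torY. These genes are near copies of each other, so the split of reads among them is uncertain. Rises in the spermatogenesis list numbered 2, 0 and 5 with BW25113 replicates 1, 2 and 3 left out in turn and 2, 14 and 0 with the torY replicates left out, and 4 with total counts as the scaling. Without torY replicate 2 a spermatogenesis gene was also called lower, spe-48, named after its value was seen.

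Genes of cell division and of meiosis leaned lower, and edgeR with all 33 libraries fitted called a minority. Whether the falls in cell division genes lay in germ cells or in embryos was not tested. Of cell division and replication genes 14.8% fell, beside 5.25% of all genes tested. Among meiosis and synapsis genes 9.09% fell and among oocyte and maternal RNA regulators 9.52%. In the same order, torY lay below all controls in 24 of 27, 5 of 22 and 20 of 21 genes. Over all genes tested that share was 21.7%. Of 27 cell division and replication genes 4 fell, with a median of -1.14, and all 27 had log2 differences below 0. The gene mcm-6 (III, 9794367 to 9798644), a subunit of the replicative helicase, was at 71.2, 114.2 and 118 CPM in BW25113 and 39.9, 40.1 and 42.9 CPM in torY. The torY replicates were nearly equal and lay below every control (-1.30, SE 0.33, adjusted p = 0.0179 in edgeR). The replication licensing gene cdt-1 (-1.71, SE 0.49), the helicase subunit mcm-5 (-1.28, SE 0.44) and the kinase gene cdk-4 (-1.50, SE 0.45) fell too. Of 22 meiosis and synapsis genes 2 fell, msh-5 (-1.26, SE 0.38) and cosa-1 (-1.33, SE 0.44), both of which act in crossover formation. The median of the list was -0.80. Of 21 oocyte and maternal RNA regulators 2 fell (median -1.11), among them nos-2 (-1.36, SE 0.46), a Nanos homolog needed by germ cells. DESeq2 called 14 falls among the cell division genes, where edgeR called 2, 0 and 1 with BW25113 replicates 1, 2 and 3 left out in turn and 0, 4 and 0 with the torY replicates left out. The oocyte regulators held 0 calls without any 1 of the 6 libraries and 14 falls with the 6 libraries alone.

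Yolk genes, which the intestine expresses to provision oocytes, were lower by size but not called by edgeR with all 33 libraries fitted. The 6 vitellogenins summed to 10541, 13781 and 18067 TPM in BW25113 and to 6149, 5759 and 5278 TPM in torY. For vit-2 the levels were 23024, 26735 and 25067 CPM against 14883, 10301 and 8767 CPM (-1.14, SE 0.61, adjusted p = 0.172). For vit-3 they were 9551, 15685 and 14216 CPM against 6295, 1260 and 2184 CPM (-2.02, SE 0.77, adjusted p = 0.0664). No torY library reached the controls for either gene, and vit-3 stood at -2.94 without torY replicate 1. Of the 6 genes 4 had an unadjusted p under 0.05, and DESeq2 called 3 lower. In edgeR 3 were called lower with the 6 libraries alone, 3 without purH library 1 and 2 with total counts as the scaling.

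Genes expressed in embryos were lower in torY. Adult hermaphrodites carry embryos, so whole-body RNA includes theirs. Of 30 embryonic transcription factor genes 11 fell by edgeR and 16 by DESeq2, and 0 rose by either. The median log2 fold change was -1.27 in edgeR. The gene hlh-2 (I, 7190788 to 7193920), the E protein partner of many helix-loop-helix factors, was at 29.3, 33.8 and 25.3 CPM in BW25113 and at 6.42, 8.39 and 4.43 CPM in torY. The highest torY library stood well below the lowest control (-2.197, SE 0.48, adjusted p = 0.0118 in edgeR). The T-box gene tbx-8, which acts in embryonic epidermis, fell from 3.21, 3.00 and 1.86 CPM to 0.276, 0.155 and 0.0876 CPM (-3.98, SE 1.02). The endoderm specifier end-1 was near 0 in torY, at 0, 0.0387 and 0.0438 CPM, against 0.758, 0.490 and 0.568 CPM (-4.07, SE 1.07). The falls in the list numbered 4, 0 and 8 with BW25113 replicates 1, 2 and 3 left out in turn and 3, 11 and 0 with the torY replicates left out.

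Among the 10 named falls with the lowest p were a pair of innexins and a cadherin. The innexin inx-3 (X, 5996156 to 5998243), a gap junction protein, was at 75.3, 99.9 and 71.5 CPM in BW25113 and 18.1, 11.0 and 14.4 CPM in torY (-2.50, SE 0.58, adjusted p = 0.0135 in edgeR). The innexin inx-2 went from 44.5, 33.3 and 21.3 CPM to 4.56, 6.92 and 2.76 CPM (-2.79, SE 0.64). The Fat-like cadherin gene cdh-4 fell by 2.23 (SE 0.51) and the laminin chain lam-3, the 1 call among 13 basement membrane genes, by 2.56 (SE 0.78). The groups were apart in each of these genes, and the call of lam-3 was lost without any 1 library.

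Dosage compensation lowers expression from both X chromosomes in hermaphrodites, beginning in the embryo, and 5 of the 11 genes of this complex and its regulators fell. Their median was -1.33, and all 11 had log2 differences below 0. The condensin subunit mix-1 (II, 10824246 to 10841424), shared with the mitotic condensins, was at 28.3, 41.0 and 48.4 CPM in BW25113 and 19.1, 17.7 and 15.3 CPM in torY (-1.18, SE 0.32, adjusted p = 0.0232 in edgeR). The condensin subunit capg-1 (-1.61, SE 0.47) and the recruiter sdc-1 (-1.53, SE 0.42) also fell. The tested genes of the X chromosome as a whole had a median log2 fold change of 0.26, those of chromosome V 0.26, and those of chromosomes I and III -0.25 and -0.26. The falls of the complex numbered 5, 0 and 1 with BW25113 replicates 1, 2 and 3 left out in turn and 1, 3 and 0 with the torY replicates left out.

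Linker histones, which bind between nucleosomes, were among the larger falls of the 31 histone genes tested, 7 of which fell (median -0.75). The linker histone his-24 (X, 14490094 to 14491119) was at 898, 877 and 411 CPM in BW25113 and 184, 57.1 and 71.0 CPM in torY (-2.81, SE 0.82, adjusted p = 0.0290 in edgeR). Its lowest control remained above its highest torY library. Without torY replicate 1 its log2 fold change was -3.51, and the histone falls numbered 1, 0 and 5 with BW25113 replicates 1, 2 and 3 left out in turn and 3, 1 and 0 with the torY replicates left out.

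F-box proteins bring substrates to ubiquitin ligases, and the F-box A, B and C families are large and fast evolving in C. elegans. Of 219 members tested, 61 fell (27.9%, beside 5.25% of all genes tested) and 3 rose, with a median of -0.80. All 299 members counted summed to 350, 292 and 315 TPM in BW25113 and to 110, 369 and 178 TPM in torY. The sums thus overlapped, with torY replicate 2 above every control in TPM. In CPM the 219 members tested summed to 590.3, 493.4 and 418.4 in BW25113 and to 218.9, 419.1 and 220.4 in torY. There torY replicate 2 stood at about the level of the lowest control. Many members were at low levels: a filter at a mean of 1 CPM left 92, of which 21 fell and 0 rose. One of the 61 falls, fbxb-43 (II, 1536231 to 1537306), was at 1.69, 1.103 and 1.14 CPM in BW25113 and at 0, 0.0773 and 0.0438 CPM in torY (-4.68, SE 1.01, adjusted p = 0.0118 in edgeR). Among 68 MATH and BTB domain genes, which include other ligase adaptors, 8 fell and 2 rose, with a median of -0.03. The BTB gene btb-6 (II, 1715303 to 1716497) was at 9.502, 8.70 and 6.10 CPM in BW25113 and 1.73, 2.98 and 1.31 CPM in torY (-2.004, SE 0.50). Within the same family btb-8 fell by 4.55 (SE 0.96), and its torY libraries were all at or under 0.155 CPM. Members of both families resemble each other, so reads may be shared among them. F-box falls numbered 19, 0 and 32 with BW25113 replicates 1, 2 and 3 left out in turn, 17, 56 and 1 with the torY replicates left out, and 14 with total counts as the scaling.

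Most metabolic lists held few calls. Of the 15 methionine cycle and cysteine synthesis genes 3 rose: sams-5, cbs-2 and cth-1. The S-adenosylmethionine synthetase gene sams-5 (IV, 6277433 to 6279522) was at 5.65, 4.78 and 6.46 CPM in BW25113 and 28.6, 25.0 and 35.5 CPM in torY (2.40, SE 0.61, adjusted p = 0.0192 in edgeR). The gene cth-1 (V, 16100680 to 16102750), for a cystathionine gamma-lyase that makes cysteine, went from 39.8, 30.0 and 20.5 CPM to 101, 100.1 and 195 CPM (2.13, SE 0.59). The cystathionine beta-synthase gene cbs-2 rose by 3.05 (SE 0.84). The groups were apart in all 3, while the list's median was -0.34, with 8 of the 15 log2 differences below 0. All 3 calls were lost without BW25113 replicate 3 or torY replicate 3.

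Flavin monooxygenases oxidize compounds such as trimethylamine, the product of the reductase that TorY serves in bacteria. Of the 5 worm genes fmo-4 rose, from 8.04, 6.93 and 8.27 CPM to 13.3, 17.7 and 24.1 CPM (1.25, SE 0.41, adjusted p = 0.0420 in edgeR). The call was lost without any 1 library, with a log2 fold change of 1.00 without torY replicate 3. The log2 differences of fmo-1 (0.96, SE 0.53), fmo-3 (0.73, SE 0.45) and fmo-5 (0.22, SE 0.39) did not pass. For fmo-2 the BW25113 libraries spread from 0.0517 to 3.56 CPM and the torY libraries stood at 0.276, 0.232 and 0.394 CPM, within that range. Among 14 choline and phospholipid genes the choline kinase gene ckb-4 rose (1.09, SE 0.32), and among 23 genes of fatty acid synthesis the elongases elo-8 (3.47, SE 0.91) and elo-4 (2.90, SE 0.80) did.

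In the fit of all 33 libraries no gene of the respiratory chain was called: of 44 nuclear genes tested 0 passed in edgeR, 0 had an unadjusted p under 0.05 and 0 passed in DESeq2, with a median log2 difference of 0.12. With the 6 libraries alone, and with total counts as the scaling, edgeR called 1 higher. The ATP synthase gene atp-2, for example, was at 3786, 3536 and 3360 CPM in BW25113 and 4189, 3067 and 3373 CPM in torY, and the groups overlapped. Of 18 genes of the glyoxylate cycle and gluconeogenesis 1 was called, gpd-4 (II, 10171268 to 10172498), a glyceraldehyde-3-phosphate dehydrogenase. It went from 419, 496 and 289 CPM to 139, 128 and 78.8 CPM (-1.80, SE 0.59, adjusted p = 0.0411 in edgeR), and the call was lost without any 1 library. The worm has a near-identical copy of this gene, so its reads may be shared.

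Insulin-like peptides bind the receptor DAF-2, and 4 of the 30 tested rose (13.3%) and 2 fell (6.67%). Over all genes tested these shares were 9.66% and 5.25%. The peptide gene ins-35 (V, 20375536 to 20376302) was at 0.699, 0.306 and 0.568 CPM in BW25113 and 11.7, 5.45 and 7.10 CPM in torY (3.92, SE 0.89, adjusted p = 0.0130 in edgeR), and ins-37 rose by 3.28 (SE 0.85). In contrast ins-34 (IV, 14106574 to 14107737) fell from 10.09, 10.4 and 5.48 CPM to 1.45, 1.31 and 0.833 CPM (-2.85, SE 0.71), and ins-2 fell by 4.41 (SE 1.26). Rises among the insulin-like genes numbered 1, 0 and 2 with BW25113 replicates 1, 2 and 3 left out in turn and 2, 4 and 1 with the torY replicates left out.

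Among the nervous system lists, the neuropeptide genes leaned higher as a whole, and calls elsewhere fell on single genes. Of 102 neuropeptide genes 11 rose (10.8%, beside 9.66% of all genes tested) and 0 fell. The list shares members with a list of epidermal antimicrobial peptides, and the shared members include a gene that rose. The rises are thus not all neuronal. Log2 differences were above 0 in 98, with a median of 0.79. In 61 all torY libraries lay above all controls, beside 25.5% of all genes tested. Rises numbered 2, 0 and 4 with BW25113 replicates 1, 2 and 3 left out in turn. With the torY replicates left out they numbered 2, 9 and 1. Of 1095 chemoreceptor genes 50 had enough counts to be tested, and 5 of those rose (10.0%, beside 9.66% of all genes tested). Among them was odr-10, the receptor for the odorant diacetyl. It went from 0.233, 0.184 and 0.103 CPM to 0.898, 1.04 and 1.31 CPM (2.62, SE 0.59, adjusted p = 0.0130 in edgeR). Of 14 dopamine genes, 2 rose (14.3%) and 1 fell (7.14%), beside 9.66% and 5.25% of all genes tested. The amine oxidase genes amx-1 and amx-2 went in opposite directions, with amx-1 at 4.26, 6.25 and 6.61 CPM in BW25113 and 1.31, 1.89 and 2.15 CPM in torY (-1.67, SE 0.43). The dopamine transporter gene dat-1 was at 0.466, 0.613 and 0.672 CPM against 2.07, 1.31 and 1.31 CPM and was not called (1.41, SE 0.56, adjusted p = 0.0767). In the circuit for oxygen sensing and social feeding, 10 of 23 genes had too few counts to be tested, among them the neuropeptide receptor npr-1 and 6 soluble guanylate cyclases. Their highest count in any of the 6 libraries was 14, so a difference was not detectable at this depth. Of the 13 that were tested 1 was called, lite-1, and the neuropeptide genes flp-18 (0.87, SE 0.37) and flp-21 (0.93, SE 0.47), which encode ligands of that receptor, were not.

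In lists of digestion and detoxification genes the share that rose, beside 9.66% of all genes tested, was 14.3% of cathepsins and aspartyl proteases, 11.1% of transferases and 10.3% of cytochrome P450 genes, and among C-type lectins it was 16.7%. The aspartyl protease gene asp-8 (V, 3024549 to 3027931) was at 41.2, 26.7 and 27.4 CPM in BW25113 and 178, 225 and 231 CPM in torY, with tight replicates and no overlap (2.73, SE 0.56, adjusted p = 0.0118 in edgeR). Of 21 cathepsins and aspartyl proteases 3 rose. Among C-type lectins 19 rose, 4 fell and 91 were not called (median 0.47), and of 99 glutathione and glucuronosyl transferases, which attach groups to foreign compounds, 11 rose and none was called lower by edgeR or DESeq2 (median 0.71). The omega-class glutathione transferase gsto-1 (III, 7945542 to 7947018) was at 11.4, 5.70 and 14.6 CPM in BW25113 and 29.4, 92.2 and 46.7 CPM in torY (2.41, SE 0.61, and 1.84 without torY replicate 2). Among 58 cytochrome P450 genes 6 rose and 1 fell. With BW25113 replicates 1, 2 and 3 left out in turn, lectin rises numbered 6, 0 and 1, transferase rises 3, 0 and 5 and P450 rises 1, 0 and 1. With the torY replicates left out, lectin rises numbered 4, 15 and 1, transferase rises 5, 10 and 1 and P450 rises 4, 1 and 0, while cathepsin and aspartyl protease rises numbered 0 without BW25113 replicate 2 and 1 in each of the other 5 fits. The P450 gene cyp-14A4 was at 0.466, 0.245 and 0.258 CPM in BW25113 and 0.829, 18.8 and 4.08 CPM in torY (4.59, SE 1.20), and its log2 fold change was 2.92 without torY replicate 2, where it was no longer called. Its level thus came mainly from 1 library, while the P450 gene cyp-33C8 was high in all 3, at 22.0, 64.4 and 51.4 CPM against 5.95, 2.70 and 4.80 CPM (3.36, SE 0.81).

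Markers of 3 tissues held 1 call each, in differing directions, and the part of tissue make-up in the results above was not tested. Of the intestine markers the 1 call was the aquaporin aqp-4, which rose by 1.37 (SE 0.34), and the summed level of the list was 7068, 8668 and 6054 CPM in BW25113 and 8671, 4632 and 6117 CPM in torY. The muscle list summed to 35147, 38425 and 32534 CPM against 52104, 32512 and 34622 CPM, and its call was the actin-binding cofilin unc-60 (3.74, SE 0.97), at 103, 14.2 and 34.1 CPM in torY and 3.15 to 4.53 CPM in the controls. The pan-neuronal list summed to 517, 546 and 509 CPM against 556, 424 and 548 CPM, and its call was maco-1 (-1.32, SE 0.41). The groups overlapped in all 3 sums of CPM. In TPM the muscle list summed to 19017, 19875 and 19784 in BW25113 and to 20914, 25700 and 23337 in torY, without overlap. The intestine and pan-neuronal lists overlapped in TPM as well. The sperm genes did not overlap, with 165, 171 and 237 CPM for the spermatogenesis list in BW25113 and 1195, 663 and 884 CPM in torY.

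Set against the yccU diet, no difference was called by edgeR. Of 14695 genes 0 were called (0.0%), 62 had an unadjusted p under 0.05, and DESeq2 called 4, each of which was at 0 in all 3 torY libraries. Those were mnat-1, T23F2.13, ZK675.4 and Y62E10A.24, named after their values were seen, and none was above 0 in all 3 yccU libraries. Pearson's r between torY and yccU libraries over all genes was 0.934 to 0.987. The yccU replicates differed among themselves: col-144 was at 7067, 1513 and 5937 CPM there (log2 difference 0.64, SE 0.73), and wrt-6 at 31.9, 6.22 and 31.6 CPM (0.56, SE 0.69). A p that misses the threshold does not show that the diets act alike.

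Set against the mean of the 8 remaining mutants (crl, iaaA, purH, ycdC, ycgJ, yghZ, yjgU and ypdF), a contrast without any BW25113 library, 3764 genes were called (25.6%), 2226 higher (15.1%) and 1538 lower (10.5%) in torY. For col-144 the 24 libraries of these diets ran from 157 to 2605 CPM with a median of 816, all below the lowest torY library (log2 fold change 3.23, SE 0.42, adjusted p = 1.68e-05 in edgeR). For lin-42 they ran from 6.93 to 64.1 CPM around a median of 29.2, again below torY (3.18, SE 0.38). The lectin clec-45, at 0.760, 0.541 and 1.88 CPM in torY, did not exceed 0.395 CPM in any of the 24 and had a median of 0.0594 CPM (4.13, SE 0.45). At the other end hlh-2 stood at 9.85 to 47.2 CPM in the 24 libraries, above all torY libraries (-1.70, SE 0.40). The count fell to 933 without torY replicate 1, to 624 without torY replicate 3 and to 1619 with total counts as the scaling.

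By list, 27 of 42 hedgehog-related genes, 12 of 14 body shape collagens, 5 of 6 furrow collagens, 49 of 102 neuropeptide genes and 22 of 40 spermatogenesis genes were higher in torY than in these 8 diets, and 15 of 30 embryonic transcription factors and 75 of 219 F-box genes were lower. Mean list levels were also compared by library. On the log2 CPM scale the hedgehog-related list averaged 2.41 to 3.01 in torY, 0.37 to 0.95 in BW25113 and 0.25 to 1.72 in the 24 libraries of the other 8 diets, all 24 below every torY library. The same separation from all 24 held for the furrow, body shape and numbered collagens, the astacins, the patched-related genes, the abu and phat genes, the sperm lists and the C-type lectins. The yccU diet was not separate: its hedgehog-related level ran from 1.16 to 2.86, with replicate 2 lowest. The lists are collections of genes chosen with earlier results known, and these ranges are descriptions.

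**Figure D5:**
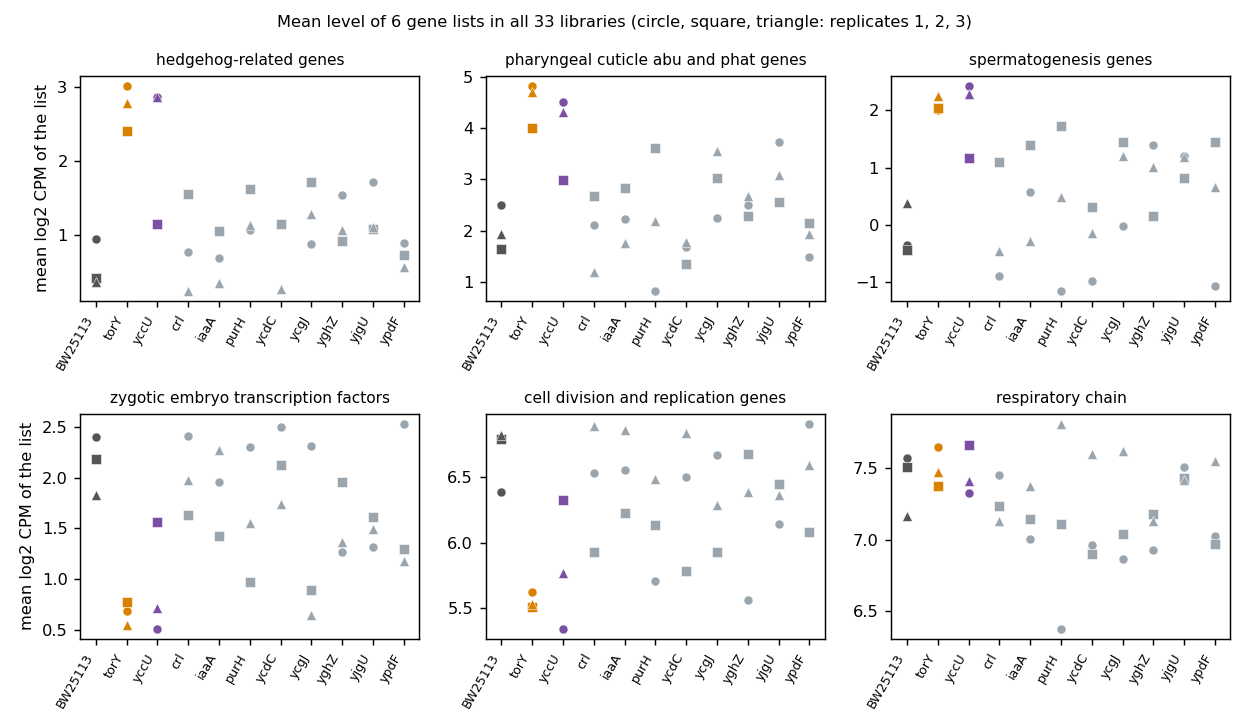
Mean log2 CPM of 6 gene lists (y axis) in each of the 33 libraries, grouped by diet (x axis), with torY in orange, BW25113 in dark grey, yccU in purple and the other 8 mutants in light grey, and circles, squares and triangles for replicates 1, 2 and 3. The torY libraries lie above all libraries but those of yccU for hedgehog-related, abu and phat, and spermatogenesis genes, are low for embryonic transcription factors and cell division genes, and lie within the range of the other diets for the respiratory chain.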

How the data were processed

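Total RNA of whole worms was sequenced, and the authors deposited a table of expected counts and TPM for each library. The submitters' processing notes name HISAT, StringTie, Bowtie2 and the build WBcel235, with no versions or roles, and counting rule and strandedness are not stated there. Expected counts, 7.78% to 9.72% of them not whole in the 6 libraries, were rounded. TPM as deposited by the authors served only for sums over genes, without a test. Coordinates were taken from the Ensembl 115 annotation of WBcel235, to which 18153 of 18811 symbols matched by name and 537 by locus name.

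All 33 libraries were fitted by diet with the quasi-likelihood test of edgeR 4.0.16 (R 4.3.3), with TMM composition factors (0.661 to 1.16 in the 6 libraries) and its default filter on low counts. That filter left 14695 genes and set aside 4116 with 0.0197% of the counts. Adjusted p-values are Benjamini-Hochberg values over all genes tested, and the standard error is the log2 fold change over the square root of F. The biological coefficient of variation was 44.5%. Contrasts were torY against BW25113, against yccU and against the mean of 8 other mutants, and the last 2 share the torY libraries with the first. Alternatives were DESeq2 1.42.0, other scalings and filters, subsets of libraries and a replicate block. The procedure was tested on simulated data. Libraries within a group differed by far more than sampling noise.

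Genes were named by rule: in each list up to 4 calls with the lowest p or, with no call, up to 3 genes of the highest level; over all genes, the 10 calls in each direction with the highest level and the 10 with the lowest p at a mean of at least 5 CPM; and any member of the furrow collagen, molting, flavin monooxygenase, vitellogenin, oxygen circuit and dopamine lists. Genes named outside this rule are said to be. Of the 249 genes that the rule selects, 106 are described. The comparison, the 62 gene lists and the rule were chosen with earlier results of these data known, and lists may share genes.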

Additional observations from a re-analysis of the deposited data

How the results depend on the processing

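In torY against BW25113, DESeq2 called 3405 genes (2180 higher, 1225 lower) and a fit of the 6 libraries alone 3834 (2611 and 1223), against 823 (666 and 157) with total counts as the scaling. A filter at a mean of 1 CPM left 903 higher. Leaving out 1 library gave 0 to 2116 calls, with 0 to 1235 higher and 0 to 881 lower. Against yccU, DESeq2 called 4 genes, all lower, and edgeR 0 under each alternative run. Against the other 8 mutants total counts gave 1619 calls (831 higher, 788 lower), the compared groups alone 1435 higher (44.0% of 3263 calls, against 59.1% in the fit of all libraries) and the 1 CPM filter 1378 higher. Without 1 torY library the calls numbered 624 to 3287, with 566 to 1768 higher and 58 to 1519 lower. The cause of these shifts was not tested.

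The replicate numbers were not taken to pair the samples: deviations of same-numbered torY and BW25113 libraries correlated at -0.136, -0.183 and 0.184, and those of torY and yccU libraries at 0.00193, 0.3 and 0.473, so not every pair was over 0.1. With the replicate block 2669 genes were called in torY against BW25113, 0 against yccU and 4455 against the other 8, and 106 of the 106 named genes kept their call or lack of one.

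Signs turned in no called gene named here, which the calling itself largely set, and in the medians of 9 lists. Over all alternatives the median of the cuticlins ran from -0.281 to 0.418 and that of the MATH and BATH genes from -0.415 to 0.296, and those of the cathepsins, chitinases, heterochronic genes and the glyoxylate list also crossed 0. Over the fits that left out 1 library, the median of the basement membrane list ran from -0.317 to 0.071, that of body wall muscle from -0.0192 to 0.369, nhr-23 from -0.692 to 0.0862, fmo-5 from -0.0042 to 0.507, dpy-10 from -0.285 to 0.574, atp-2 from -0.149 to 0.084 and grh-1 from -0.385 to 0.213. The median of the oxygen circuit was -0.168 with the 1 CPM filter. The value of atp-2 was 0.0271 with DESeq2 and with its size factors, 0.131 with the 6 libraries alone, 0.0711 without purH library 1 and 0.225 with total counts, and grh-1 stood at 0.0454 with the 6 libraries alone and 0.152 with total counts.

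With 3 libraries a group and a biological coefficient of variation of 44.5%, the design resolves large differences best, and genes at a few counts were not tested.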

Other observations

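Genes known only by a sequence name made up 62.7% of the genes that rose in torY and 46.7% of all genes tested. By chromosome, the share of tested genes that rose ran from 6.89% on III to 11.1% on IV, and the share that fell from 3.39% on V to 7.42% on II.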
